A study of Homo sapiens with 4 samples.

Results

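DBP and RORB are 2 genes linked to the circadian clock. They were described here in SH-SY5Y cells, an established human neuroblastoma line of sympathetic lineage, treated with origamicin, which the submitters describe as an inhibitor of protein disulfide isomerase. They are 2 of the 14884 genes with a named probe set on the Affymetrix Human Gene 2.0 ST array, and each had 1 named probe set, so no choice between probe sets was needed. Both were selected on the log2 difference between origamicin and mock in these same arrays, so their own values are given as a description, with no test.

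The study held 4 arrays. Cells of the mock group (2 arrays) had methanol, the solvent, for 24 h, and cells of the origamicin group (2 arrays) had 30 µM origamicin for 24 h. All were cultures of the same line in serum-containing medium. Per the labels the 2 arrays of each treatment are biological replicates. Nothing says that they came from different passages, so the p-values here cover the spread between arrays, which may be technical. The labels name a single time and no step that synchronises the cells, so these data hold levels of clock genes and no phase or rhythm.

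In the clock of mammalian cells, the transcription factors CLOCK and BMAL1 bind E-box sequences and switch on the period and cryptochrome genes, whose proteins then repress CLOCK and BMAL1. DBP is an output of that loop: CLOCK and BMAL1 drive it through E-boxes, and its protein, a PAR bZIP transcription factor like TEF and HLF, binds D-box sequences in other genes, period genes among them. RORB is a nuclear receptor of the ROR family, best known in retina, brain and the clock centre of the hypothalamus. ROR proteins bind sites with an AGGTCA core and activate BMAL1, on sites where the REV-ERB receptors repress.

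DBP was lower after origamicin. Its log2 expression was 8.55 and 8.53 on the mock arrays and 7.73 and 7.85 on the origamicin arrays. Both origamicin arrays lay below both mock arrays, as they did for 25.8% of all genes tested. The origamicin pair lay farther apart (0.12) than the mock pair (0.024). The group means were 8.54 ± 0.017 (SD, n = 2) in mock and 7.79 ± 0.085 (SD, n = 2) in origamicin. The difference of origamicin minus mock was -0.75 ± 0.07 on the log2 scale (moderated SE of the limma fit), which is 1.68-fold lower. Each of the 4 pairings of an origamicin with a mock array gave a lower value, from -0.82 to -0.68. Ordered by change, DBP stood at place 19 from the low end of the 11883 genes tested.

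RORB was higher after origamicin. It stood at 8.56 and 8.49 on the mock arrays and at 9.51 and 9.45 on the origamicin arrays. The groups did not overlap, origamicin being higher, as for 22.7% of all genes tested. The arrays of a group differed by 0.075 in mock and 0.064 in origamicin. The group means were 8.52 ± 0.053 (SD, n = 2) and 9.48 ± 0.045 (SD, n = 2). The log2 difference was 0.96 ± 0.07 (moderated SE), which is 1.94-fold higher, and the 4 pairings of arrays gave 0.89 to 1.03. In the same order RORB stood at place 13 from the high end. Levels of DBP and RORB on their own probe sets cannot be set against each other, since each probe set has its own affinity. Both stood well above the value of 3.82 below which a gene was left out as dim.

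**Figure D1:**
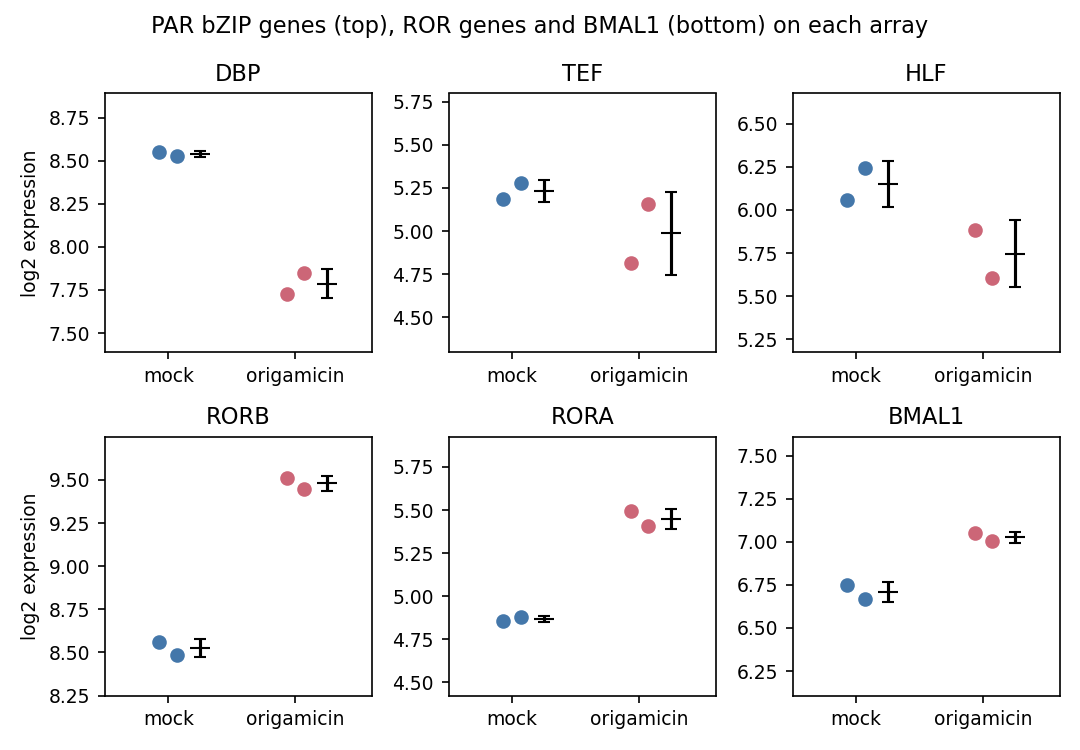
Log2 expression on each array (points) with the group mean ± SD (black, n = 2) for the PAR bZIP genes DBP, TEF and HLF (top) and for RORB, RORA and BMAL1 (bottom), with axes of equal span but different position. Origamicin points lie below mock points in the top panels (DBP 7.73 and 7.85 against 8.55 and 8.53) and above them in the bottom panels (RORB 9.51 and 9.45 against 8.56 and 8.49). The groups did not overlap for 48.6% of all genes tested.

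The bases before each transcription start show what regulatory letters these genes carry there. RefSeq (GRCh38.p14) gives 1 start for DBP and 2 for RORB, and the files do not say which RORB start the probe set follows. The 250 bases before each start are printed 5′ to 3′ on the gene's own strand, with CCAAT (or ATTGG, its other strand) and TATAA in capitals, the core promoter letters found in them.
DBP, chr19:48637380-48637629, minus strand: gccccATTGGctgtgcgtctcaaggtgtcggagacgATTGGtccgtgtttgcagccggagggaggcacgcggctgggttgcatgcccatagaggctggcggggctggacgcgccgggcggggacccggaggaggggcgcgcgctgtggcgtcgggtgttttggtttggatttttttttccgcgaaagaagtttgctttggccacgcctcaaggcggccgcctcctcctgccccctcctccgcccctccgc
RORB first start, chr9:74497085-74497334, plus strand: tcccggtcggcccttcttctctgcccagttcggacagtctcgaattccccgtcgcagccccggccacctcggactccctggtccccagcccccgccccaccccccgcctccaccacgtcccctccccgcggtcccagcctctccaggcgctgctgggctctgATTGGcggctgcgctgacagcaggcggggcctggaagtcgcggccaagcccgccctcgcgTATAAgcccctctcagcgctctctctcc
RORB second start, chr9:74615284-74615533, plus strand: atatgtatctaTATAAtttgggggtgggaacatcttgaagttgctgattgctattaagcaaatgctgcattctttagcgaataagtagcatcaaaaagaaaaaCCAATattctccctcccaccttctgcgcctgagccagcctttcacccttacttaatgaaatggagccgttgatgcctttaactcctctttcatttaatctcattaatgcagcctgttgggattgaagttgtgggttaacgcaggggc
DBP had 2 CCAAT letters, 245 and 214 bases before its start, and no TATAA. The first RORB window had TATAA 28 bases before the start and the second 239 bases before it, and each had CCAAT letters, at 88 and 147 bases. Among all 35116 promoter windows of 300 bases (250 before the start and 50 after), 34.6% held CCAAT and 20.4% TATAA on either strand. G and C made up 67.2% of the DBP bases, 72% of the first RORB bases and 41.6% of the second, against a median of 58% over all windows.

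Clock motifs were searched on both strands of the same windows: the E-box CACGTG, its variant CACGTT, the D-box TTATGTAA or TTACGTAA, the ROR core AGGTCA or GGGTCA, and the cyclic AMP element TGACGTCA. None of these motifs contains another. They occurred in 7.26%, 5.34%, 1.01%, 25.6% and 1.85% of all windows. None was in the DBP window or in either RORB window, which says only that these letters are not in these bases. Some clock genes near them in the pathway did hold such letters, while BMAL2, NPAS2 and RORA held none of those searched. Only TEF and PER1 held CACGTG. Genes with 2 starts had 2 windows searched. Examples are shown here in capitals with up to 10 bases on each side. They are of the kinds that CLOCK and BMAL1 (E-box), DBP (D-box) and RORB (ROR core) are known to bind.
TEF E-box, first start, chr22:41367250-41367275, plus strand: gcgacagctcCACGTGctgcagctgg
TEF E-box, second start, chr22:41381739-41381764, plus strand: cctggccccgCACGTGtctatcttat
PER1 E-box, chr17:8152562-8152587, minus strand: cacccaggtcCACGTGcgcccgtgtg
PER2 D-box, chr2:238288596-238288623, minus strand: ccgctgcggcTTACGTAAccgccgccgg
PER3 D-box, chr1:7784104-7784131, plus strand: agcccgcgcgTTATGTAAcgcgccccgg
BMAL1 ROR core, chr11:13277811-13277836, plus strand: ggcagaaagtAGGTCAgggacggagg
The TEF E-boxes began 195 and 193 bases before their starts and the PER1 E-box 173 bases before its start. The D-box of PER2 spanned the start and that of PER3 began 177 bases before 1 of its 2 starts. The BMAL1 ROR core began at base 32 of the transcript of 1 of its 2 starts. CLOCK, PER1, CRY1 and CRY2 also held a ROR core, HLF held TGACGTCA, and CLOCK, PER2, CRY1 and CRY2 held CACGTT or its other strand. A match is a description of the letters, and binding was not measured.

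The other genes of the clock were read from the same fit of all 11883 genes. In the limma fit none of those genes passed an adjusted p of 0.05 (0% called; smallest adjusted p = 0.095), and 1950 (16.4%) had an unadjusted p under 0.05. When eBayes let the prior spread follow the intensity, 511 passed (4.3%), 2.14% of all genes being higher and 2.16% lower. The median change over all genes was -0.0072, with a median absolute change of 0.11. The groups did not overlap for 48.6% of genes, 22.7% being higher and 25.8% lower in origamicin, and the counts below are read against these shares.

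The relatives of DBP stood lower as well. HLF, a PAR bZIP factor that shares D-box sites with DBP, stood at 6.06 and 6.24 in mock and at 5.89 and 5.61 in origamicin, a difference of -0.40 ± 0.13 (moderated SE; limma adjusted p = 0.26). TEF, the third PAR bZIP factor, stood at 5.19 and 5.28 in mock and at 4.82 and 5.16 in origamicin, a difference of -0.25 ± 0.13 (limma adjusted p = 0.44). The groups did not overlap for either gene, but the TEF arrays of origamicin replicate 2 and mock replicate 1 were only just apart. Neither passed the test, with or without an intensity trend. Without origamicin replicate 1 the TEF difference was -0.074 and without origamicin replicate 2 it was -0.42. For HLF the same values were -0.54 and -0.26. NFIL3, which represses through the same D-box sites, was not analysed here.

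RORA, the other ROR gene measured, stood higher as RORB did. Its values were 4.86 and 4.88 in mock and 5.49 and 5.41 in origamicin, with no overlap. The difference was 0.58 ± 0.07 (limma adjusted p = 0.10). It passed with an intensity trend (adjusted p = 0.047) and with a stricter filter on dim genes (adjusted p = 0.037). The REV-ERB genes NR1D1 and NR1D2, which compete with ROR proteins for the same sites, were not analysed here.

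Among the activators of the loop, BMAL1, the partner of CLOCK and a known target of ROR proteins, stood at 6.75 and 6.67 in mock and at 7.05 and 7.0 in origamicin. That is a difference of 0.32 ± 0.07 (limma adjusted p = 0.18), with no overlap between the groups. CLOCK stood at 9.18 and 9.21 in mock and at 9.33 and 9.36 in origamicin, again with no overlap, a difference of 0.15 ± 0.06 (limma adjusted p = 0.35). NPAS2, which can stand in for CLOCK, and BMAL2, a relative of BMAL1, overlapped between groups. NPAS2 stood at 0.19 ± 0.15 and BMAL2 at 0.07 ± 0.14, with mock arrays that lay far apart (5.10 and 4.71 for NPAS2, 5.62 and 6.0 for BMAL2). All 4 activators had a difference above 0, where 47.8% of all genes tested did, and none passed. The sign of NPAS2 and BMAL2 rested on 1 mock array: without mock replicate 2 NPAS2 stood at -0.0043, and without mock replicate 1 BMAL2 stood at -0.13.

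The period and cryptochrome genes, which encode the repressors of the loop, had differences below 0 in all 5 cases, and none passed. Of all genes tested 52.1% stood below 0. These genes and the activators are parts of the core clock list. Their division by role was not planned with that list, which was itself chosen with earlier results of these data known. PER2 stood at 5.88 and 5.96 in mock and at 5.41 and 5.67 in origamicin, a difference of -0.38 ± 0.11 (limma adjusted p = 0.23). CRY1 stood at 6.74 and 6.69 in mock and at 6.50 and 6.59 in origamicin, a difference of -0.17 ± 0.07 (limma adjusted p = 0.34). For PER1, which cyclic AMP and glucocorticoid signals also switch on, the difference was -0.13 ± 0.08, and for CRY2 it was -0.12 ± 0.08. The groups did not overlap for these 4 genes, but for CRY2 mock replicate 1 and origamicin replicate 1 both stood at 5.88. Single arrays set much of these values: PER2 stood at -0.25 without origamicin replicate 1, PER1 at -0.059 without mock replicate 1, and CRY2 at -0.044 without mock replicate 2 and -0.074 without origamicin replicate 2. The groups overlapped for PER3 (-0.10 ± 0.11), whose value without origamicin replicate 1 was 0.014.

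**Figure D2:**
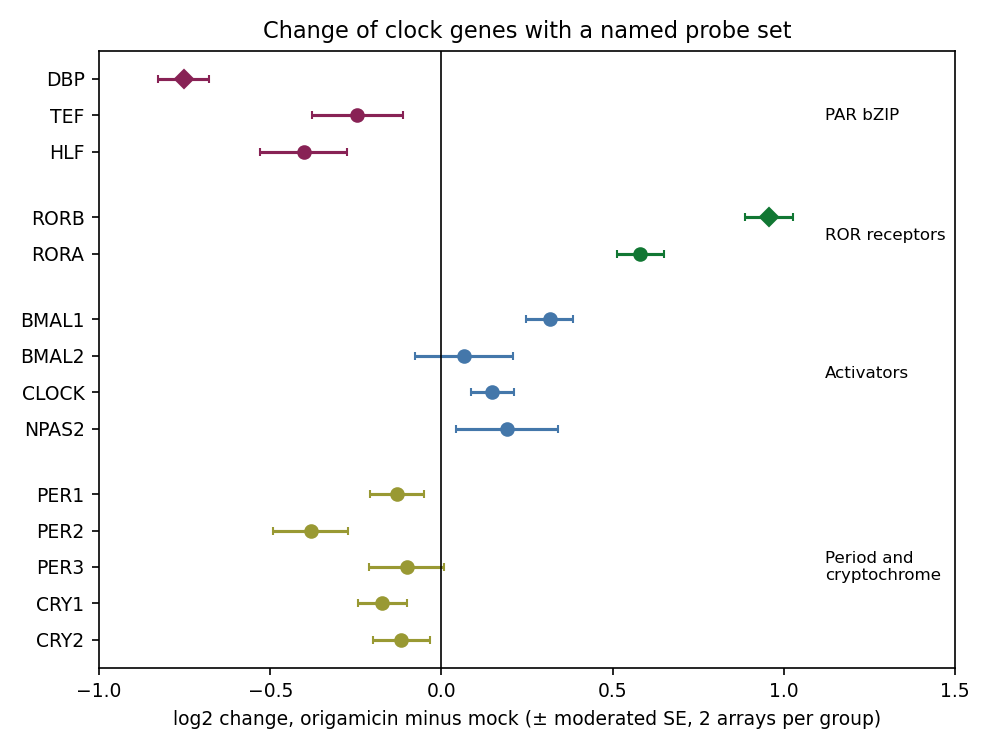
Log2 change (origamicin minus mock) with its moderated SE, 2 arrays per group, for DBP and RORB (diamonds) and the 12 other clock genes measured (circles), coloured by role. PAR bZIP, period and cryptochrome genes lie left of 0 (DBP -0.75, PER2 -0.38) and ROR genes and activators right of it (RORB 0.96, BMAL1 0.32), and 10 of the 12 circles lie within 0.4 of 0. The division of the core clock list by role was not planned with that list, which was chosen with earlier results of these data known.

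Over the core clock list of 16 genes, 10 had a named probe set and all 10 were bright enough to be tested. Of these, 5 stood above 0 and 5 below, with a median of -0.017 beside -0.0072 over all genes and a median absolute change of 0.16 beside 0.11. The groups did not overlap for 7 of the 10 (3 higher, 4 lower), against 22.7% and 25.8% of all genes. None passed in the limma fit (2 higher and 1 lower had an unadjusted p under 0.05, against 7.99% and 8.42% of all genes), and 1, RORA, passed with an intensity trend.

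**Figure D3:**
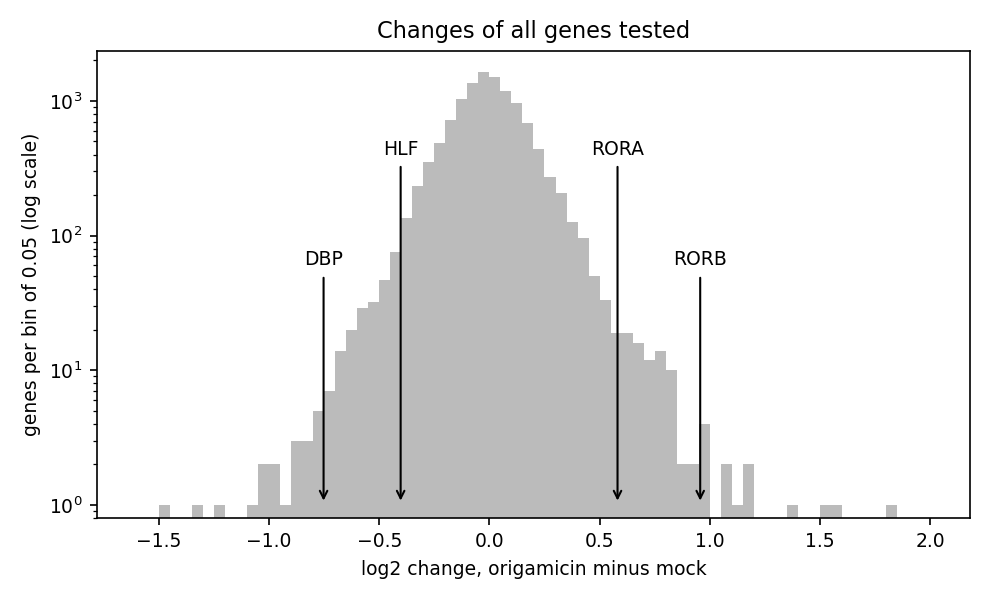
Histogram of the log2 change (origamicin minus mock) of all 11883 genes tested, in bins of 0.05 with a log-scaled count axis, and arrows at DBP, HLF, RORA and RORB. DBP at -0.75 and RORB at 0.96 lie in the sparse tails, while HLF at -0.40 and RORA at 0.58 lie nearer the bulk around the median of -0.0072.

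Clock output genes, driven by the loop or by PAR bZIP factors in many tissues, stood below 0 for 6 of the 8 tested, where 52.1% of all genes tested stood below 0 and 47.8% above. The median was -0.20. The list held 16 genes, of which 9 were named and LONRF3 was dim. None passed in the limma fit, and 0 higher and 3 lower had an unadjusted p under 0.05 (7.99% and 8.42% of all genes). With an intensity trend 2 were lower (2.16% of all genes). KLF9, a transcription factor under clock and glucocorticoid control, stood at 6.59 and 6.64 in mock and at 6.17 and 6.24 in origamicin, a difference of -0.42 ± 0.07 (limma adjusted p = 0.16; 0.047 with an intensity trend). NAMPT, the rate-limiting enzyme of NAD salvage, stood at -0.35 ± 0.10 (limma adjusted p = 0.23; 0.0497 with an intensity trend). Its other named probe sets, both dimmer, stood at -0.023 and 0.11, so the probe sets of NAMPT disagree. NOCT, which encodes nocturnin, stood at -0.26 ± 0.09 (limma adjusted p = 0.28).

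Cofactors of ROR proteins were next. Of the 11 genes on that list 6 were named and 5 tested, NRIP1 being dim. Above 0 stood 4 of the 5, against 47.8% of all genes, with a median of 0.12. None passed in the limma fit, and 1 higher and 0 lower had an unadjusted p under 0.05 (7.99% and 8.42% of all genes). The coactivator NCOA1 stood at 9.12 and 9.20 in mock and at 9.47 and 9.50 in origamicin, a difference of 0.32 ± 0.07 (limma adjusted p = 0.18), and it passed with an intensity trend (adjusted p = 0.019). The acetyltransferase EP300 stood at 0.21 ± 0.08 (0.12 without mock replicate 2) and the coactivator NCOA2 at 0.12 ± 0.06.

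Genes that carry signals into the clock, such as glucocorticoid, cyclic AMP and immediate early signals, were tested for 10 of the 12 on the list. The list was chosen with earlier results of these data known. The median was 0.066, with 7 above 0 and 3 below, against 47.8% and 52.1% of all genes. None passed in the limma fit, and 4 higher and 0 lower had an unadjusted p under 0.05 (7.99% and 8.42% of all genes). With an intensity trend 2 were higher (2.14% of all genes). These were the immediate early factor EGR1 (1.08 ± 0.10, and 0.65 on its dimmer probe set) and the glucocorticoid-responsive kinase SGK1 (0.89 ± 0.07). FOS, another immediate early gene, stood at 0.21 ± 0.07, and at -0.10 on its dimmer probe set. Regulators that modify clock proteins lay near 0, with 9 of 16 tested, a median of 0.0098 and a range of -0.13 to 0.11. None of them had an unadjusted p under 0.05 in the limma fit and none passed with an intensity trend. The deubiquitinase USP7 (-0.13 ± 0.07), the kinase GSK3B (0.11 ± 0.06) and the RNA-binding protein SFPQ (-0.09 ± 0.07, and -0.059 without origamicin replicate 1) had the smallest p.

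The genes most like DBP and RORB were found by subtracting each gene's mean over the 4 arrays and taking the root mean square difference from the member over those 4 arrays. With 4 arrays in 2 groups, this measure picks genes with a change of nearly the same size and says nothing of shared control. Closest to DBP were the adhesion protein FLRT3 (0.029 away, with a change of -0.73), the chemokine receptor CXCR4 (0.041, -0.71), the granule protein CHGB (0.042, -0.76), GLT8D2 (0.047, -0.69) and the receptor tyrosine kinase KIT (0.056, -0.70). Like DBP, FLRT3, CXCR4, CHGB and GLT8D2 were lower on origamicin replicate 1 than on replicate 2, and KIT was not. GLT8D2 stood at 3.77 and 3.80 in origamicin, under the value of 3.82 that marks dim genes, so it was tested through its mock level and the size of its change is uncertain. Closest to RORB were the microRNA gene MIR4521 (0.056, with a change of 0.97), SGK1 (0.058, 0.89), the matrix protein MGP (0.065, 0.91), PLPPR2 (0.070, 0.82) and TMEM229A (0.071, 0.83). In mock MGP (3.87 and 3.96) and SGK1 (4.20 and 4.25) stood not far above 3.82, so the sizes of their changes are uncertain too. With the mean of its probe sets MIR4521 had a change of 1.22. The genes listed for RORB lay farther from it than those for DBP. None of the 10 belongs to the core clock list, whose changes ran only from -0.38 to 0.58, so the measure could not pick its genes. SGK1 is on the clock input list.

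**Figure D4:**
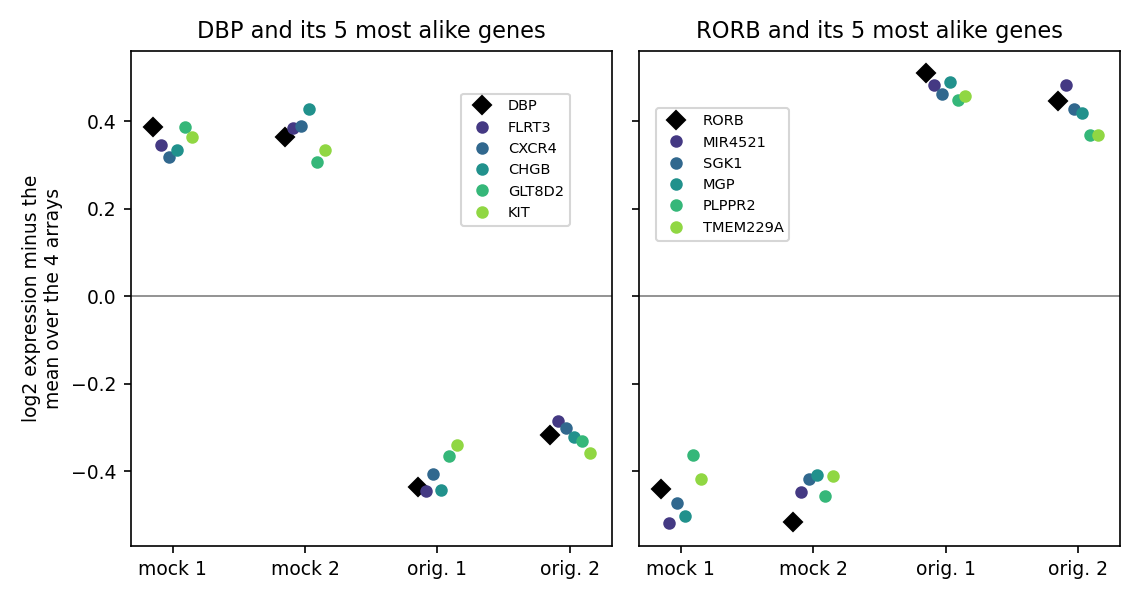
Log2 expression minus the gene's mean over the 4 arrays, by array (orig. is origamicin), for DBP (left) and RORB (right) as diamonds and the 5 most alike genes of each as circles. DBP and its 5 genes lie lower in origamicin than in mock (changes of -0.76 to -0.69), and RORB and its 5 lie higher (0.82 to 0.97), as the choice of these genes requires.

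Neighbouring genes were read to see whether the differences extended along the chromosome. In the RefSeq order SPHK2 overlaps DBP on the other strand, and it was not analysed here. CA11, the next gene on the far side and an inactive member of the carbonic anhydrase family, stood at 7.31 and 7.36 in mock and at 7.11 and 7.12 in origamicin, a difference of -0.22 ± 0.06 (limma adjusted p = 0.23) with no overlap. For RPL18, SPACA4 and NTN5, the other neighbours tested within 3 places, the groups overlapped and the differences were -0.0098, -0.11 and 0.078. RORB overlaps the antisense gene RORB-AS1 and the transcript LOC105376088, and neither these nor TRPM6 beyond it were analysed here. The strand that the probe sets read is not given in the sources used here, so signal from overlapping partners cannot be told apart from that of DBP and RORB. These neighbours were chosen after the data were seen.

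Cell type markers were read beside these values. Noradrenergic neuroblastoma markers, the type the label of the line implies, were tested for 9 of 11 genes. Of the 9, 8 stood below 0, against 52.1% of all genes, with a median of -0.11. DDC (-0.59) and ISL1 (-0.30) were lowest, while TH (-0.0052) and GATA3 (-0.017) lay near 0 and HAND2 (0.042) above it. The mean log2 level of the 9 was 10.31 and 10.35 on the mock arrays and 10.17 and 10.16 on the origamicin arrays. Markers of mesenchymal neuroblastoma cells, which such cultures can hold, were tested for 7 of 8 (CD44 was dim). Of the 7, 6 stood above 0, against 47.8% of all genes. Without overlap, VIM (0.45), FN1 (0.37) and SNAI2 (0.30) were higher and TWIST1 (-0.05) lower, against 22.7% and 25.8% of all genes. The groups overlapped for YAP1, PRRX1 and WWTR1. PRRX1 and WWTR1 exceeded both mock arrays only on origamicin replicate 1 (4.74 and 5.57, with 4.27 and 5.04 on replicate 2). The means of the 7 markers were 6.65 and 6.62 in mock and 6.93 and 6.76 in origamicin. Glial and Schwann cell markers were tested for 5 of 7, with 3 above 0 and means of 4.68 and 4.77 in mock and 4.73 and 4.83 in origamicin. None of these markers passed in the limma fit. With an intensity trend 3 mesenchymal markers were higher and 2 noradrenergic markers lower, against 2.14% and 2.16% of all genes. The part of the markers in the values of DBP and RORB was not tested. In bulk RNA, fewer cells of a type and less RNA per cell cannot be told apart. Across genes, Pearson's r was 0.995 between the mock arrays, 0.994 between the origamicin arrays and 0.991 to 0.992 for pairs from both groups.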

How the data were processed

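The authors deposited log2 expression values per probe set for 4 arrays. Per the submitters' processing notes, the tools were RMA and limma, with no version stated. The sources used here give no build or annotation. Values were not normalized again. Array values have no counting depth, and the number of arrays limits the precision.

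Of 53617 probe sets, 16098 name 1 gene, 0 several, and 37519 are unnamed here. Per gene the probe set with the highest mean was kept. A gene was called dim and left out where its mean lay under the 40th percentile over probe sets (3.82), so 11883 of 14884 stayed. Origamicin was set against mock in limma 3.58.1 (R 4.3.3) by lmFit and eBayes (1 prior variance for all genes, two-sided), with Benjamini-Hochberg adjustment over those 11883 genes and a threshold of 0.05. The fit was checked on simulated data, where the condition set was the mean size of known changes, not the p-values. DBP, RORB and all gene lists were chosen with earlier results of these data known. Named were DBP, RORB, every measured gene of the core clock and PAR bZIP lists, of other lists members past the threshold or else the 3 with the smallest p, and the 5 genes most like each member. Promoter windows came from RefSeq (GRCh38.p14), matched by symbol, and all 14 clock genes shown were found.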

Additional observations from a re-analysis of the deposited data

How the results depend on the processing

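The difference of DBP kept its sign in all 14 alternatives (-0.77 to -0.74, and -0.81 to -0.69 without 1 array), as did that of RORB (0.94 to 0.97, and 0.92 to 0.99 without 1 array). Most of these could not have turned it. Settings of the block, filter, probe set choice or variance leave these differences as they are. As all 4 pairings of arrays lay on 1 side of 0, leaving out 1 array could not turn the sign. With the replicate number as a block, DBP stood at -0.75 and RORB at 0.96, 0 genes passed and 1718 had an unadjusted p under 0.05 in limma. Deviations of arrays with the same number did not go together (r = -0.023), so the numbers are not taken as a pairing. At the 60th percentile filter 92 genes passed, among them 1 core clock gene and 1 clock input gene. With an intensity trend 511 passed, among them 1 core clock, 2 clock output, 1 ROR partner and 2 clock input genes. The other alternatives, cyclic loess (chosen after seeing the data) among them, called 0 genes. The core clock median ran from -0.093 to 0.050 without 1 array. Signs turned without 1 array for BMAL2 (-0.13 to 0.26), NPAS2 (-0.0043 to 0.39), PER3 (-0.22 to 0.014) and RPL18 (-0.056 to 0.036), and for RPL18 with quantile normalization (0.0022). The cause was not tested. With the mean of its probe sets NAMPT stood at -0.090.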
